A study of Mus musculus with 6 samples.

Results

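The interleukins and their receptors were followed in cultured myospheres, the floating clusters that Sca1-enriched cells of mouse hind-leg muscle form in a neural stem cell medium. Members were the probe sets whose annotated single gene symbol begins with Il and a digit, leaving out Il6, Il6ra, Il6st and Il11. The rule gave 107 probe sets of 69 genes, out of 35067 single-gene probe sets of 18194 genes on the Affymetrix chips MOE430A and MOE430B. By role these were 30 ligands, 31 receptor chains, 6 decoy receptors, binding proteins or antagonists, and 2 others, the enzyme Il4i1 and the antisense transcript Il1bos. Roles and families were assigned from textbook knowledge.

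All 6 arrays belong to 1 group, with replicates 1 to 3 each read on both chips and no other condition. Per the labels, the cells came from male Balb/c mice, were sorted for the Sca1 antigen, grew for 4 days in medium supplemented with EGF, LIF, B27 and bf6f (spelled so), and gave RNA at passage 1 from 2000000 cells. The labels carry 1 submitter sample number for all arrays and do not say that the replicates are separate cultures, so the spread below may be technical. In such a bulk sample a few strongly expressing cells and many weakly expressing ones cannot be told apart.

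Interleukins are secreted messengers, first described between leukocytes, that act through receptors built from paired chains. In most complexes 1 chain binds the ligand and a partner chain, often shared between several receptors, is needed to signal. Receptors of the IL-1 family and the IL-17 family signal through adaptor proteins towards NF-kB, while class I and class II cytokine receptors signal through Janus kinases and STAT factors. In muscle, stromal cells respond to several interleukins and are a known source of IL-33 after injury.

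With 1 group the question is which members gave a signal above background, and whether ligands and receptors differed in this. The limit on each array was the 95th percentile of probe sets for genes of other tissues, such as odorant receptors and defensins. It lay between 783.5 and 821.3 signal units on MOE430A and between 2542 and 3237 on MOE430B. A gene counted as above the limit when at least 1 of its probe sets passed on each of the 3 arrays. Levels are given as MAS5 signal on MOE430A unless MOE430B is named, or as multiples of the limit of the same array. Probe sets differ in affinity, so a multiple places a probe set against background and does not rank transcripts.

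Of the 69 member genes, 16 were above the limit, or 23.2%, against a background of 36.2% over all genes. On MOE430A alone 15 of 62 member genes were above, or 24.2%, against 42.7%. Of the other 53 genes, 7 exceeded the limit on 1 or 2 arrays, as did 2414 of the 11613 genes not above among all genes. By probe set, 17 of 86 members were above on MOE430A, against 35.6% of all single-gene probe sets of that chip, and 1 of 21 on MOE430B, against 13.6%. A moderated test of each probe set against the limit placed 13 of the 107 over it (limma, adjusted p under 0.05 over all probe sets, which placed 24.1% of those over it) and 69 under it. The share under the limit over all probe sets was not computed, so the 69 is not a result about the members. The 13 probe sets over it belonged to 13 genes, and Il1f6, Il1r2 and Il1rn, counted above on all 3 arrays, were not among them.

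Only 4 members exceeded 5 times the limit on every array: the receptor chains Il13ra1, Il1r1 and Il1rap and the ligand Il33. Il13ra1 binds IL-13, Il1r1 is the signalling receptor of IL-1, Il1rap is the accessory chain that IL-1, IL-33 and IL-36 receptors share, and Il33 encodes a nuclear alarmin released by damaged cells. They were 5.80% of the members, and 8.39% of all genes reached this level.

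Il33 read 7125, 7131 and 8132 in replicates 1, 2 and 3. This was 9.24 ± 0.61 times the limit (SD, n = 3), a log2 excess of 3.21 ± 0.09 (SE; limma, adjusted p = 6.43e-08). The 3 arrays lay close together, and on the lowest the gene stood above 93.8% of the probe sets of the chip. Its receptor chain Il1rl1 was not analysed here.

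Il13ra1 read 7255, 10202 and 7328 by its brightest probe set, 10.3 ± 2.38 times the limit, with a log2 excess of 3.34 ± 0.13 (SE; limma, adjusted p = 3.25e-07). Replicate 2 was the highest and the other two were nearly equal. Il1r1 read 6391, 6130 and 5997, or 7.64 ± 0.30 times the limit, and varied least of the 4 genes, with a coefficient of variation of 3.24%. Its log2 excess was 2.93 ± 0.09 (SE; limma, adjusted p = 7.78e-08). Il1rap read 5319, 4270 and 4800, or 5.93 ± 0.53 times the limit, and here replicate 2 was the lowest. No array of any of these 4 probe sets came near the limit.

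**Figure D1:**
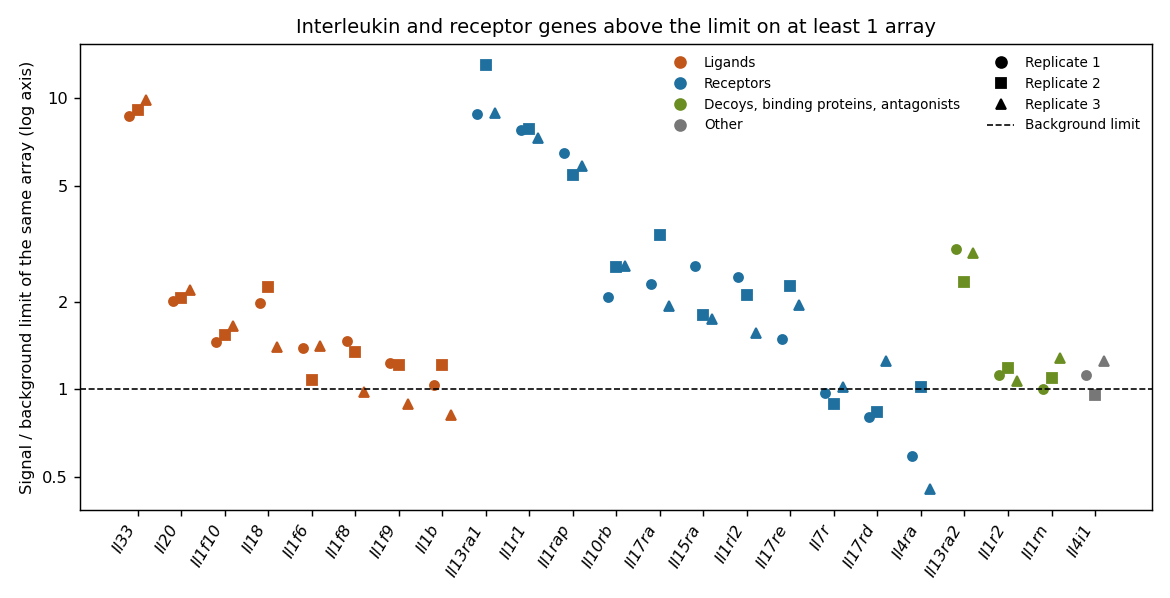
Signal of each member gene that exceeded the background limit on at least 1 array, divided by the limit of the same array (log axis), with 1 point for each of 3 replicates and the gene shown by its probe set with the highest lowest-array value. Il33, Il13ra1, Il1r1 and Il1rap stand apart above 5 times the limit, and Il1f8, Il1f9, Il1b, Il7r, Il17rd, Il4ra and Il4i1 cross the limit on 1 or 2 arrays.

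RefSeq promoter windows, from 250 bases before to 50 after a transcription start, were taken for these 4 genes because they carry the highest multiples, and all annotated windows are shown. Capitals mark matches on either strand to an NF-kB motif (GGGA and CC with any 4 bases between), an AP-1 motif (TGANTCA), a STAT motif (TTCNNNGAA) or a TATA motif (TATAAA); no marked matches overlap. Coordinates are of GRCm38.p6, all on the plus strand, at chrX:36111858-36112157 for Il13ra1, chr19:29924863-29925162 and chr19:29945540-29945839 for Il33, chr1:40224830-40225129 and chr1:40266336-40266635 for Il1r1, and chr16:26581455-26581754 for Il1rap.
Il33 window 1: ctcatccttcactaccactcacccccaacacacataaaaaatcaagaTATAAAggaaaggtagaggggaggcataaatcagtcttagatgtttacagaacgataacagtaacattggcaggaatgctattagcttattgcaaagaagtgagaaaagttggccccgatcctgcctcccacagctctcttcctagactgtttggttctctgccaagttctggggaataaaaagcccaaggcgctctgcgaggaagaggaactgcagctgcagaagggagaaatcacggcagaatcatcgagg
Il33 window 2: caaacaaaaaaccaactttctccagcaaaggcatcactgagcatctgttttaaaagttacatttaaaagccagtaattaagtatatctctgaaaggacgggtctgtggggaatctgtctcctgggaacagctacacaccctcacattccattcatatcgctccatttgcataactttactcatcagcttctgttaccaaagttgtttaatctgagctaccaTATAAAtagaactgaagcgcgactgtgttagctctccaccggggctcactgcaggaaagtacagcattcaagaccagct
Il13ra1: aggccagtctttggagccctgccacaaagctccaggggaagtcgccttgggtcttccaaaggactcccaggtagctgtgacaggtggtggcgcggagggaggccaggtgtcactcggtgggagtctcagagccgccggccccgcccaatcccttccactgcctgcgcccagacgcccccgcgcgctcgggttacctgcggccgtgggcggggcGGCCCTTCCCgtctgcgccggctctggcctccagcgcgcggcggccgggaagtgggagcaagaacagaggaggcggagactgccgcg
Il1r1 window 1: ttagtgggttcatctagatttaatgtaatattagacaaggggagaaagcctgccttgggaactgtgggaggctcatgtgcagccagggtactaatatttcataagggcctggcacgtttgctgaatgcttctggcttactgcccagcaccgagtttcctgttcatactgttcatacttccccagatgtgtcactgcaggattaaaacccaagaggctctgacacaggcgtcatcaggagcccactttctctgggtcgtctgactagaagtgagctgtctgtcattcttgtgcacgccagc
Il1r1 window 2: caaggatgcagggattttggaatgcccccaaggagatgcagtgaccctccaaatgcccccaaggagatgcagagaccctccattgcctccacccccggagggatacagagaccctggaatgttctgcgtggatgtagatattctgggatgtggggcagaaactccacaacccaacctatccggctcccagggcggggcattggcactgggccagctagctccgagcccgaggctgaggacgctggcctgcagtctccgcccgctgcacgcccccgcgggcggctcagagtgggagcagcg
Il1rap: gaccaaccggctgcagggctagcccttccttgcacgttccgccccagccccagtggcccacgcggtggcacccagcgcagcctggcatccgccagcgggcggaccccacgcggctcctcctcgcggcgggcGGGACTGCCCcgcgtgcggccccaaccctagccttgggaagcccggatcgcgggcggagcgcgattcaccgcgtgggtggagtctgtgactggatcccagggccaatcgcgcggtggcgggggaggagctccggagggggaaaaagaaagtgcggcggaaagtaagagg

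Both Il33 windows held a TATAAA match, the second at 29 bases before the start, and they were 46.3% and 42.3% G and C. The Il13ra1 and Il1rap windows had no such match, held 1 NF-kB match each and were 71.0% and 72.0% G and C. The Il1r1 windows held none of the 4 motifs and were 49.3% and 63.3% G and C. These matches are descriptions of letters and were not tested as sites.

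Promoter windows were used for 53 of the 69 member genes. Windows on chromosome 18 were left out for members and kept in the set of all windows. TATAAA on the gene's own strand, 20 to 40 bases before the start, occurred in 6 of 26 windows of ligands, in 0 of 29 windows of receptors and in 1.99% of all 32851 windows. The 6 ligands were Il33, Il1a, Il1b, Il2, Il13 and Il17a, and 1 of them, Il33, was above the limit. It occurred in 2 of 18 windows of genes above the limit and in 5 of 47 of genes not above it. Anywhere in the window and on either strand, TATAAA was in 8 of 26 ligand windows and 1 of 29 receptor windows, in 33.3% of windows of genes above the limit and 10.6% of those not above it, and in 13.6% of all windows. NF-kB matches were present in 15.4% of ligand windows, 27.6% of receptor windows and 20.7% of all windows. AP-1 matches were in 19.2% of ligand, 17.2% of receptor and 7.81% of all windows, and STAT matches in 11.5%, 13.8% and 8.30%. The median G and C content was 48.0% for ligands, 54.3% for receptors and 52.7% for all windows.

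Ligands were above the limit for 5 of 30 genes (16.7%) and receptors for 8 of 31 (25.8%), both under the 36.2% of all genes. Array by array, 8, 8 and 5 ligands exceeded the limit in replicates 1, 2 and 3, and 8, 9 and 10 receptors. Of all 18194 genes, 7542, 7618 and 8048 exceeded it, so the count over all genes was also highest in replicate 3. Ligand and receptor counts were thus equal in replicate 1 and furthest apart in replicate 3. The median of the lowest-array signal ran the other way, at 0.316 times the limit for ligands and 0.172 for receptors, against 0.583 for all genes. By probe set the shares were closer, with 5 of 37 for ligands (13.5%) and 10 of 59 for receptors (16.9%). Without replicate 3, 8 ligands and 8 receptors were above, with 37.6% of all genes above.

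The number of probe sets per gene moved with this difference. Of the ligands 25 had 1 probe set, whereas 18 of the receptors had 2 or more. Among genes with 1 probe set, 5 of 25 ligands and 0 of 13 receptors were above the limit, against a background of 22.1%. Among genes with 2 or more, 0 of 5 ligands and 8 of 18 receptors were above it, against 50.4%. All 5 ligands above the limit thus rest on a single probe set, and all 8 receptors have at least 1 more. The part of probe set number in the higher receptor count was not tested further.

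**Figure D2:**
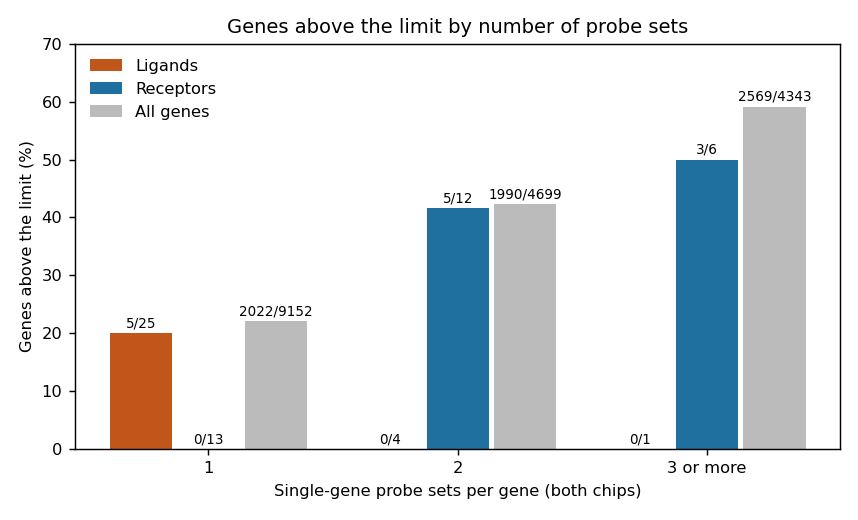
Share of ligands, receptors and all genes above the limit by the number of single-gene probe sets per gene, with counts over the bars. All 5 ligands above it have 1 probe set and all 8 receptors have 2 or more, while the share over all genes climbs from 22.1% to 59.2%.

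**Figure D3:**
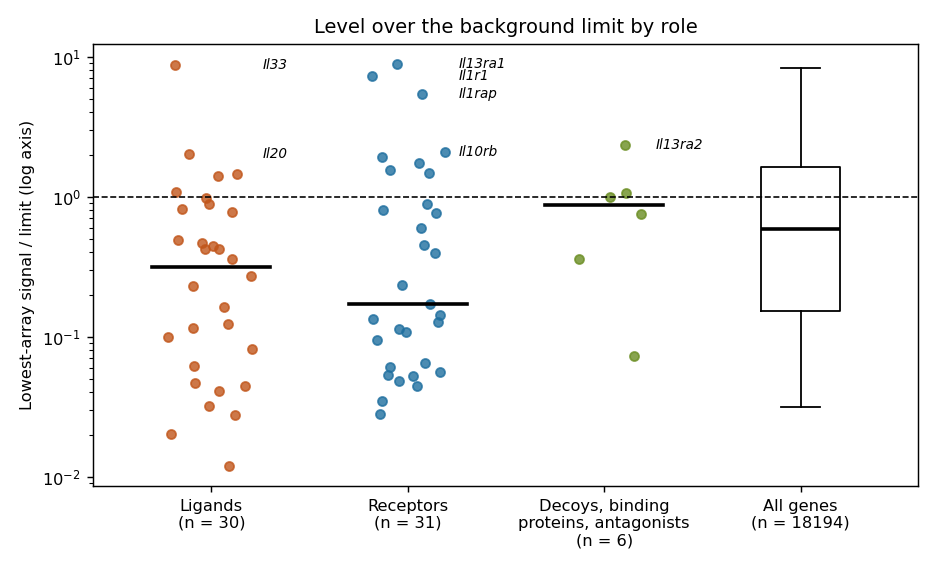
Lowest-array signal over the limit (log axis) for each member gene by role, with the median as a bar, and for all genes as a box (quartiles, whiskers at the 5th and 95th percentiles). Ligands run from 0.0120 to 8.70 times the limit and receptors from 0.0278 to 8.86, most of both under it.

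Among the remaining ligands above the limit, Il20, a cytokine of the IL-10 family known from skin, read 1650, 1618 and 1799, or 2.09 ± 0.09 times the limit (SD, n = 3). Il18, an IL-1 family cytokine stored as a precursor, read 1619, 1760 and 1147 and was lowest in replicate 3. Il1f10, the gene of IL-38, read 1194, 1207 and 1352, close together on the 3 arrays. It was counted here as a ligand and not as an antagonist, and the ligand count rests on that assignment. Limma placed all of Il20, Il18 and Il1f10 over the limit, with adjusted p of 9.93e-05 for Il20, 0.00187 for Il18 and 0.00321 for Il1f10. Il1f6, which encodes IL-36 alpha, read 1134, 842 and 1158 and was lowest in replicate 2 at 1.07 times the limit. Its log2 excess of 0.36 ± 0.15 did not pass (SE; limma, adjusted p = 0.0608).

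The other ligands of the IL-1 family lay around the limit. Il1f8 and Il1f9, the genes of IL-36 beta and IL-36 gamma, averaged 1.26 ± 0.25 and 1.11 ± 0.19 times the limit (SD, n = 3), and Il1b, a central inflammatory cytokine, 1.02 ± 0.20. All 3 exceeded it in replicates 1 and 2 and were under it in replicate 3. Limma gave them adjusted p of 0.117, 0.474 and 0.956, so none was set apart from the limit. Il1a, the other IL-1 ligand, was far lower, at 0.10 ± 0.03 times the limit.

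None of the four-helix ligands, a group that includes the growth factors of lymphocytes, was above the limit. These 10 ligands of class I receptors (Il2, Il3, Il4, Il5, Il7, Il9, Il13, Il15, Il21 and Il31) had a median of 0.0717 times the limit on their lowest array, and the highest was Il4 at 0.468. The IL-17 ligands Il17a, Il17b, Il17d and Il25 reached at most 0.271, and the IL-12 subunits Il12a, Il12b and Il23a at most 0.427. On the lowest array Il24 came to 0.772, Il10 to 0.447, Il34, a ligand of the macrophage receptor Csf1r, to 0.490, and Il16 to 0.360 (MOE430B). A level under the limit does not show that a transcript was absent.

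Beyond the 3 brightest, receptor chains above the limit lay between 1.49 and 2.08 times it on their lowest array. Il10rb, the chain shared by the IL-10 and IL-22 receptors, read 1706, 2060 and 2181, or 2.46 ± 0.32 times the limit (SD, n = 3; limma, adjusted p = 5.19e-05). Il17ra, the common chain of IL-17 receptors, read 1883, 2649 and 1591 and was highest in replicate 2 (limma, adjusted p = 0.000272). Il15ra, which presents IL-15 to neighbouring cells, read 2169, 1407 and 1435 and was highest in replicate 1 (limma, adjusted p = 0.000686). Il17re, a chain of the IL-17C receptor, read 1218, 1774 and 1600 (limma, adjusted p = 0.00114). Each of these 4 varied by less than its distance to the limit.

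Il1rl2, the IL-36 receptor chain, was above the limit by an _s_at probe set of MOE430B alone, whose probes can match several transcripts. That set read 7894, 6172 and 3960, or 2.03 ± 0.44 times the limit of MOE430B (SD, n = 3; limma, adjusted p = 0.000404). Per the file headers the MOE430B array of replicate 1, the highest of the 3, came from another chip lot than the other two, so lot and replicate cannot be told apart. The other Il1rl2 probe set, on MOE430A, averaged 0.13 ± 0.02 times its limit.

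Receptors that crossed the limit on some arrays were Il7r, Il17rd and Il4ra. Il7r, the IL-7 receptor of lymphocytes, averaged 0.96 ± 0.06 times the limit and exceeded it in replicate 3. Il17rd, also known as Sef, an inhibitor of FGF signalling, averaged 0.96 ± 0.25 on MOE430B and exceeded it in replicate 3. Il4ra, the chain that pairs with Il13ra1, averaged 0.69 ± 0.29 and exceeded it in replicate 2, by 1 of its 3 probe sets.

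The remaining receptors stayed under the limit by the probe set shown. They include the leukocyte chains Il2ra, Il2rb, Il3ra, Il5ra, Il9r, Il21r, Il12rb1, Il12rb2 and Il27ra, the IL-18 chains Il18r1 and Il18rap, and the synaptic chains Il1rapl1 and Il1rapl2. Also under it were Il10ra, Il17rb, Il17rc, Il20ra, Il20rb, Il22ra1 and Il31ra. Their lowest-array values ran from 0.0278 times the limit for Il1rapl2 to 0.764 for Il2rb.

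Of the 6 decoys, binding proteins and antagonists, 3 were above the limit. Il13ra2, which binds IL-13 with high affinity and is regarded mainly as a decoy, read 2490, 1831 and 2424, or 2.78 ± 0.38 times the limit (SD, n = 3; limma, adjusted p = 2.25e-05). Replicate 2 was lowest for it and highest for Il13ra1. Il1r2, the IL-1 decoy receptor, read 915, 931 and 880 at 1.13 ± 0.06 times the limit, and Il1rn, the IL-1 receptor antagonist, read 822, 859 and 1054 by 1 of its 3 probe sets. Neither was set apart from the limit (limma, adjusted p = 0.318 for Il1r2 and 0.353 for Il1rn). Il1f5, the IL-36 receptor antagonist, reached 0.752 times the limit on its lowest array, Il22ra2 0.360 (MOE430B) and the IL-18 binding protein Il18bp 0.0722. Of the others, the amino acid oxidase Il4i1 read 917, 751 and 1025 and was under the limit in replicate 2, and Il1bos averaged 0.11 ± 0.13 times the limit of MOE430B.

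By family, members of the IL-1 ligand and receptor families were above the limit for 9 of 18 genes (50%), and all other members for 7 of 51 (13.7%), against 36.2% of all genes. Families were compared after the values had been seen, and no test was made. The IL-1 family count depends on the limit chosen. Of its genes above, Il1f10, Il1f6, Il1r2, Il1rl2 and Il1rn were lost under the 99th percentile limit, which 27.1% of all genes passed. Il33, Il1r1, Il1rap and Il18 stayed above. Of the other members above, Il17re alone was lost. Limma did not set Il1f6, Il1r2 or Il1rn apart from the limit. Outside the IL-1 family, 1 of 22 ligands, Il20, and 5 of 24 receptors were above. In the class I receptor family the genes above were Il13ra1 and Il13ra2, out of 13. In the RefSeq gene order, 3 neighbours, Il1r2, Il1r1 and Il1rl2, were all above the limit, whereas the neighbouring pair Il18r1 and Il18rap was not. In the run of 6 neighbours Il1f8, Il1f9, Il1f6, Il1f5, Il1f10 and Il1rn, 3 were above, each at under 1.5 times the limit on its lowest array.

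Set out by receptor complex, 1 of 14 complexes had all its measured chains and a ligand above the limit. Singly, 16.7% of ligands and 25.8% of receptors were above it, against 36.2% of all genes. No such count was made for sets of other genes, so the complexes are described only. The 14 complexes have at least 2 chains among the members and were listed after the values were seen. Of these, 3 had all these chains above the limit, 6 had 1 above and 5 had none. Complete in this sense were the IL-1 receptor (Il1r1 and Il1rap), the IL-17C receptor (Il17ra and Il17re) and the IL-36 receptor (Il1rl2 and Il1rap). The last rests on the _s_at probe set of Il1rl2, and both it and the IL-17C receptor were incomplete under the 99th percentile limit, where Il1rl2 and Il17re were not above. For IL-1 neither ligand was above on all arrays, the ligand of the IL-17C receptor was not analysed here, and for IL-36 1 of 3 was above, Il1f6, which limma did not set apart from the limit. IL-18 and IL-20 showed the reverse, with the ligands Il18 and Il20 above and none of Il18r1, Il18rap, Il20ra, Il20rb or Il22ra1 above. Il2ra and Il2rb, chains of the IL-2 receptor, and Il12rb1 and Il12rb2 of the IL-12 receptor were not above either.

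Where 1 chain was above, it was a chain shared between receptors for IL-10, IL-22, IL-17A and IL-25, and not for IL-13 and IL-15. Il10rb was above and Il10ra was not, at 0.07 ± 0.02 times the limit, nor was Il22ra1, at 0.09 ± 0.02 times that of MOE430B (SD, n = 3). Il17ra was above, as was its partner Il17re at 1.90 ± 0.39, while its partners Il17rc and Il17rb averaged 0.39 ± 0.24 and 0.44 ± 0.04. For the type II receptor of IL-4 and IL-13, Il13ra1 was above and Il4ra was not. For IL-15, Il15ra was above, while Il2rb averaged 0.89 ± 0.12 and the ligand Il15 0.24 ± 0.06.

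**Figure D4:**
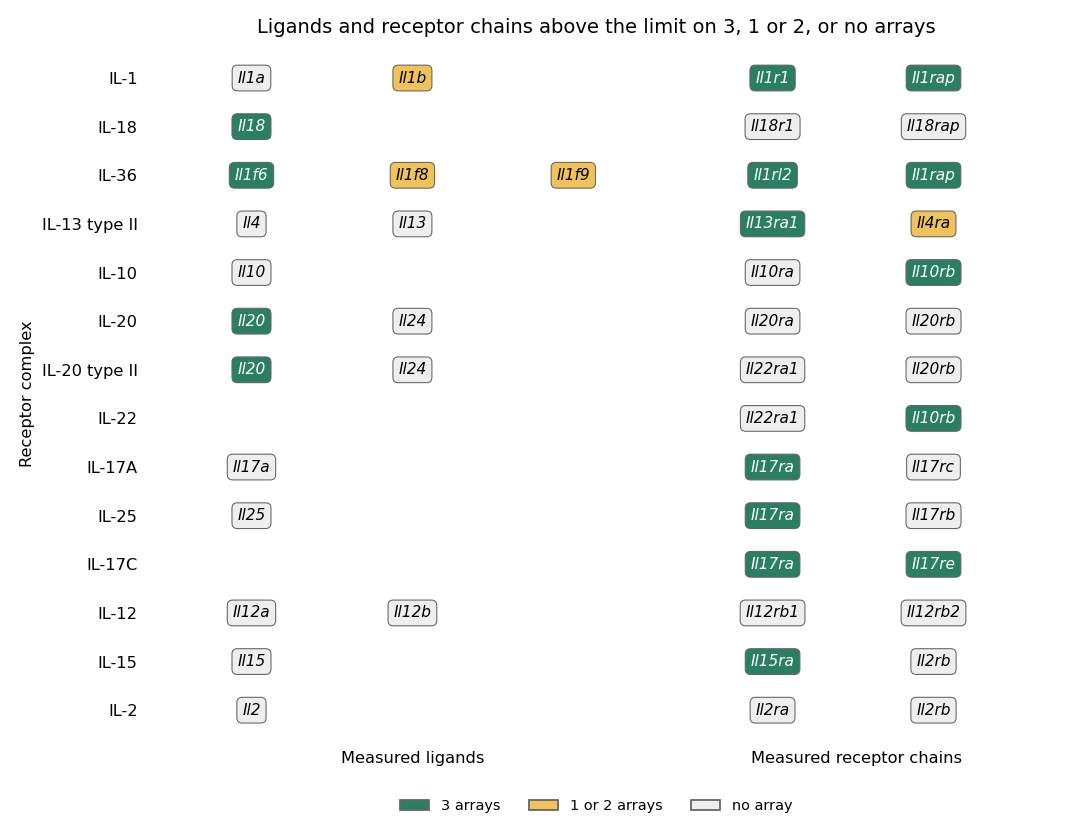
Measured ligands and receptor chains of 14 receptor complexes, coloured by whether the gene shown by its best probe set exceeded the limit on 3 arrays, on 1 or 2, or on none. Both chains are above for IL-1, IL-36 and IL-17C, while Il10rb is above without Il10ra or Il22ra1 and Il17ra without Il17rc or Il17rb.

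Different probe sets of 1 gene could give different answers. Of 25 member genes with several probe sets, 9 had some above and some not, 16 had none above and 0 had all above. At least 1 probe set was above in 50.4% of all 9042 genes with 2 or more. How many of those genes were split was not counted, so the split is not read as a trait of the members. Il13ra1 had 3 of 5 above, at 10.3 ± 2.38, 1.32 ± 0.22 and 1.21 ± 0.06 times the limit, and its other sets averaged 0.60 ± 0.18 and 0.16 ± 0.08 (SD, n = 3). Of these 5, limma placed the brightest over the limit, and the next gave an adjusted p of 0.0529. Il1rap had 1 of 5 above, at 5.93 ± 0.53, and the others averaged 0.12 to 0.93. For Il1r1 the second set, on MOE430B, read 0.03 ± 0.02 times the limit. Which transcript ends these sets match was not tested, and a gene counted above by 1 set of several had more chances to pass.

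**Figure D5:**
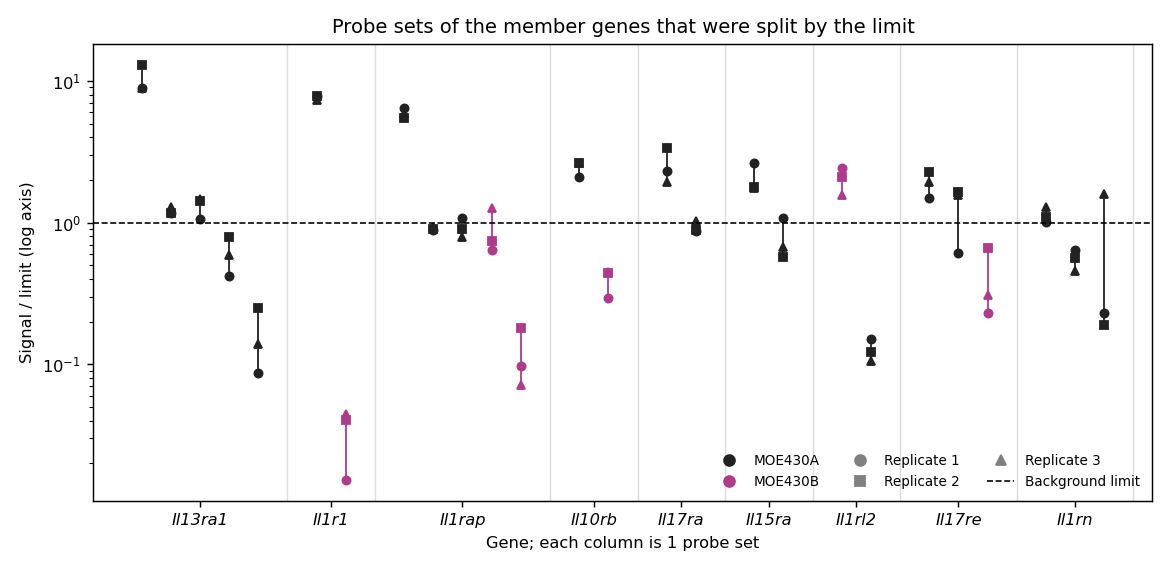
Signal over the limit (log axis) of every probe set of the 9 member genes whose probe sets fell on both sides of the limit, with 1 point for each replicate and the chip by colour. The sets of Il13ra1 span from 0.0868 to 13.0 times the limit across arrays.

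The signalling, processing and partner genes of these receptors were read from 5 lists drawn up with earlier results of these data known. Of 57 listed genes 54 were measured and 30 were above (55.6%, against 36.2% of all genes). In the JAK-STAT list 14 of 22 were above (63.6%). They included Socs3, a feedback inhibitor, at 36.2 ± 4.67 times the limit, the phosphatase Ptpn11 at 15.1 ± 0.31 and Socs5 at 9.06 ± 0.32 (SD, n = 3). The medium contained LIF, which also signals through this route. The others above were Stat3, Socs2, Socs7, Jak1, Cish, Pias1, Jak2, Stat6, Ptpn6, Socs4 and Pias3. The 8 not above were Jak3, Tyk2, Stat2, Stat4, Stat5a, Stat5b, Socs1 and Socs6.

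In the IL-1 signalling list 6 of 14 were above (42.9%), near the 36.2% of all genes. The highest were Tab2, an adaptor of the kinase Map3k7, at 8.48 ± 0.97, Tollip at 5.57 ± 0.14 and the adaptor Myd88 at 4.11 ± 0.74 times the limit (SD, n = 3). Irak1, Irak2 and the inhibitory Irak3 were the other members above it. In the IL-17 list 5 of 6 were above (83.3%). The highest were the transcription factors Cebpb at 17.2 ± 2.14 and Cebpd at 6.80 ± 0.40 and Nfkbiz at 5.56 ± 0.24. The adaptor Traf3ip2 and Traf5 were the others. Many of these genes also serve other pathways.

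Of genes that process IL-1 and IL-18, 3 of 6 were above, Casp4, Gsdmd and Nlrp3, at 2.49 ± 0.19, 1.98 ± 0.44 (MOE430B) and 1.34 ± 0.12 times the limit (SD, n = 3). Casp1, the protease that matures both cytokines, averaged 1.03 ± 0.31 and exceeded the limit in replicate 2 alone. Among partner chains, 2 of 6 were above (33.3%): Crlf2, which pairs with Il7r, at 3.15 ± 0.26 and Csf2rb at 1.34 ± 0.12 on MOE430B.

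Markers of cells that could contribute interleukin signal were read on the same arrays. All 9 mesenchymal markers were above the limit, as were 1 of 8 T and NK cell genes, 0 of 5 B cell genes, 5 of 13 macrophage and monocyte genes, 1 of 10 mast cell and granulocyte genes, 2 of 6 endothelial genes and 0 of 8 muscle genes. The shares of macrophage and monocyte genes (38.5%) and endothelial genes (33.3%) lay near the 36.2% of all genes. The defining T cell genes Cd3e, Cd3d and Cd3g averaged 0.16 ± 0.09, 0.18 ± 0.14 and 0.49 ± 0.18 times the limit (SD, n = 3). Cd8a was the T and NK cell gene above it, at 1.48 ± 0.25 on MOE430B by 1 of 5 probe sets, an _x_at set. S100a8, the mast cell and granulocyte gene above it, averaged 7.80 ± 1.19 by an _s_at set. The macrophage receptor Csf1r averaged 3.63 ± 0.76, and the leukocyte and macrophage genes Ptprc, Itgam and C1qa 0.78 ± 0.30, 0.11 ± 0.11 and 0.13 ± 0.02. The other macrophage and monocyte genes above the limit were Cd14 at 5.62 ± 0.60, Lyz2 at 2.60 ± 0.78, Laptm5 at 1.86 ± 0.12 and Adgre1 at 1.77 ± 0.16. Of those not above, Tyrobp at 1.26 ± 0.38 and Cd68 at 0.98 ± 0.09 exceeded the limit on 2 arrays each. Fcgr1, at 0.90 ± 0.30 on MOE430B, and Ptprc exceeded it on 1 array each. Mrc1 and C1qb, at 0.65 ± 0.15 and 0.54 ± 0.21, exceeded it on none, nor did Itgam and C1qa. The part of macrophages in the signals above was not tested. Over probe sets, Pearson's r between replicates on the log2 scale was 0.916 to 0.922 for MOE430A and 0.749 to 0.773 for MOE430B. Hybridisation controls were highest in replicate 2 on both chips, in 18 of 18 sets each. Of the 17 member probe sets above the limit on MOE430A, 3, 6 and 8 were highest in replicates 1, 2 and 3 relative to the limit, as were 2245, 2883 and 2126 of all 7254 such sets. The members' median coefficient of variation was 13.7%, against 13.0% for all.

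The stricter 99th percentile limit left 10 member genes above it, losing Il17re, Il1f10, Il1f6, Il1r2, Il1rl2 and Il1rn, with 27.1% of all genes above it. Il1rl2 was also lost without _x_at, _s_at and _a_at probe sets, with MOE430A alone and with receptor genes as the background set, the last of which ended the call of Il1rn too. Each of these settings left out _s_at sets or MOE430B. The only Il1rl2 set above the limit is an _s_at set of MOE430B, so its loss there was fixed in advance.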

How the data were processed

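Each probe set has a deposited intensity, a linear MAS5 signal per the submitters' processing notes, with version and detection calls not given in the sources used here. In both deposited tables the trimmed mean was 1500 on every array, each chip by itself, so levels are read only against the limit of their own chip, and MAS5 signals near background vary more than high ones. Having 3 arrays per chip limits the precision.

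Gene names came from the platform annotation, with symbols brought up to date by Entrez number from RefSeq's GRCm38.p6 table (20364 of 20393 single-gene probe sets on MOE430A and 14499 of 14674 on MOE430B). The background set held defensins, testis kinases, placental prolactins, gamma crystallins, sperm nuclear proteins, keratin-associated proteins and the receptors for odorants, pheromones and taste, with 152 probe sets on MOE430A and 44 on MOE430B, of which 4 and 2 passed the rule themselves. Every probe set was tested with limma 3.58.1 in R 4.3.3 (log2 of signal over limit against 0, no pseudocount, intensity trend, Benjamini-Hochberg over 35067), which gives the limit no error of its own. The step was tested on simulated data. P-values measure the spread between these arrays. A gene is shown by its probe set with the highest lowest-array signal over limit, and every member gene above on at least 1 array is named with values. Members and lists were chosen with earlier results of these data known, and the IL-1 families, complexes and probe set strata after the values were seen. Alternatives changed the limit, the normalization, the probe sets, the chip, the replicates and the variance model. Python 3.11.15, numpy 2.4.6, pandas 2.3.3 and matplotlib 3.10.9 were used.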

Additional observations from a re-analysis of the deposited data

Results flagged for a closer look

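A probe set of MOE430B annotated to 2 genes, of which 1 is an interleukin, was left out of the members and gave signal in data that no comparison used. It read 26.98, 29.45 and 35.38 times the limit in replicates 1, 2 and 3, on average 30.6 ± 4.32 (SD, n = 3). Its name ends in _x_at, which marks probes that match several transcripts, so no gene is named for it here. The other probe sets of this kind, both on MOE430A, averaged 0.08 ± 0.03 and 0.17 ± 0.06 times the limit.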

How the results depend on the processing

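The 16 member genes above the limit became 10 with the 99th percentile limit and 27 with the array median as limit, where the shares were 14.5% and 39.1% of the members against 27.1% and 53.8% of all genes. The 5 ligands became 3 and 10. With the array median limma placed 23 member probe sets over it in place of 13. Leaving out 1 replicate at a time gave 16 to 19 member genes, 5 to 8 ligands, 8 receptors each time, 14 to 15 probe sets by limma and 31 to 32 signalling and partner genes. Dropping an array from the rule can only add genes; without replicate 3 these were Il1b, Il1f8 and Il1f9, and without replicate 2 Il4i1. In the other alternatives run, counts stayed within 1.5 times. Quantile normalization keeps the order on each array, so it could not change these calls by its own construction. Il33, Il13ra1, Il1r1, Il1rap, Il13ra2, Il10rb, Il20, Il17ra, Il15ra and Il18 kept their calls under all 10 alternatives. Most of these alternatives could not remove the calls. The array median lay under the limit on every array. These genes were all shown by MOE430A probe sets without an _x_at, _s_at or _a_at ending. The 99th percentile limit and the receptor gene reference could remove them. With receptor genes as reference, MOE430B had under 20 reference probe sets and was left out. Of 228 values of named genes under alternatives, 60 moved by more than 1 SD of the arrays. The cause of these changes was not tested. No paired analysis was possible because no groups of samples were compared. The limit of MOE430B rests on 44 probe sets, so calls there are less certain.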
